A study of Mus musculus with 10 samples.

Results

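The 10 genes described here form the core of the circadian clock and its output. They are the activators Arntl, Clock and Npas2, the repressors Cry1, Cry2, Per2 and Per3, the nuclear receptors Nr1d1 and Nr1d2, and the output factor Dbp. They were found by their gene symbols, 1 row each, among the 35275 genes of the deposited table, and all 10 reached the level set for testing, which was 1 FPKM in 4 or more libraries and was met by 13610 genes in all. FPKM divides the fragments of a transcript by its exon length and by the size of the library, so levels can be compared between genes.

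The mammalian clock is a feedback loop of transcription that runs in nearly every cell. ARNTL (also called BMAL1) pairs with CLOCK or NPAS2 and activates the Per, Cry and Nr1d genes and Dbp through E-boxes in their DNA. PER and CRY proteins then return to the nucleus and repress that pair, while the NR1D receptors repress Arntl. In the adult mouse lung, as in liver, transcripts of Arntl and Dbp peak at opposite times of day.

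RNA labelled as whole lung was sequenced from CD1 mouse pups on postnatal day 6, when alveoli form. In Dll4+/- pups a lacZ reporter stood in for 1 germline allele of Dll4, which encodes a Notch ligand of endothelial cells, and Dll4+/+ littermates carried both alleles. The 8 libraries, Dll4+/- replicates 1 to 4 and Dll4+/+ replicates 3 to 6, each came from a pup of its own, with 2 labelled female and 2 labelled male per genotype, and all pups were euthanized with pentobarbital. The clock hour at which lungs were taken, and the litter of each pup, were not stated in the sources used here.

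Depth ranged from 17201662 to 22927840 fragments per library. The level of Dll4 itself averaged 14.8 ± 4.36 FPKM in the heterozygotes against 27.6 ± 4.12 FPKM in their wild-type littermates (SD, n = 4 each), and Sftpc, the surfactant gene that marks alveolar type II cells, reached 11181 to 36845 FPKM. Sex markers went against the label of Dll4+/- replicate 2, labelled female, in which Xist was at 0.273 FPKM and the Y-linked gene Ddx3y at 20.3 FPKM. The library of Dll4+/- replicate 1 stood apart from the rest, with 56.1% of all genes tested outside the range of the other 7. In Dll4+/+ replicate 3 the share was 44.8%, in Dll4+/- replicate 4 it was 37.1%, and the other 5 libraries had 6.7% to 21.4%.

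Every clock gene was present at a low to moderate level in the P6 lung. Cry2 had the highest mean over the 8 libraries, 15.0 FPKM, followed by Cry1 at 10.3, Per2 at 8.96, Nr1d2 at 8.37 and Per3 at 8.34 FPKM. Clock averaged 5.67, Arntl 5.04, Dbp 4.32, Nr1d1 3.20 and Npas2 2.25 FPKM. Cry2 lay above 62.5% of the genes tested by its mean level, and Npas2 above 13.2%. Not every neighbour in this order differed beyond the spread: Cry2 exceeded Cry1 and Per3 exceeded Clock in 8 of 8 libraries, whereas Per2 exceeded Nr1d2 in 4 of 8 and Nr1d2 exceeded Per3 in 6 of 8. For each of the 9 neighbouring pairs the ranges over the 8 libraries overlapped. The transcripts were counted on 90 to 2220 fragments per gene and library, which alone gives a relative counting error of 2.12% to 10.5%. That error covers counting only.

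**Figure D1:**
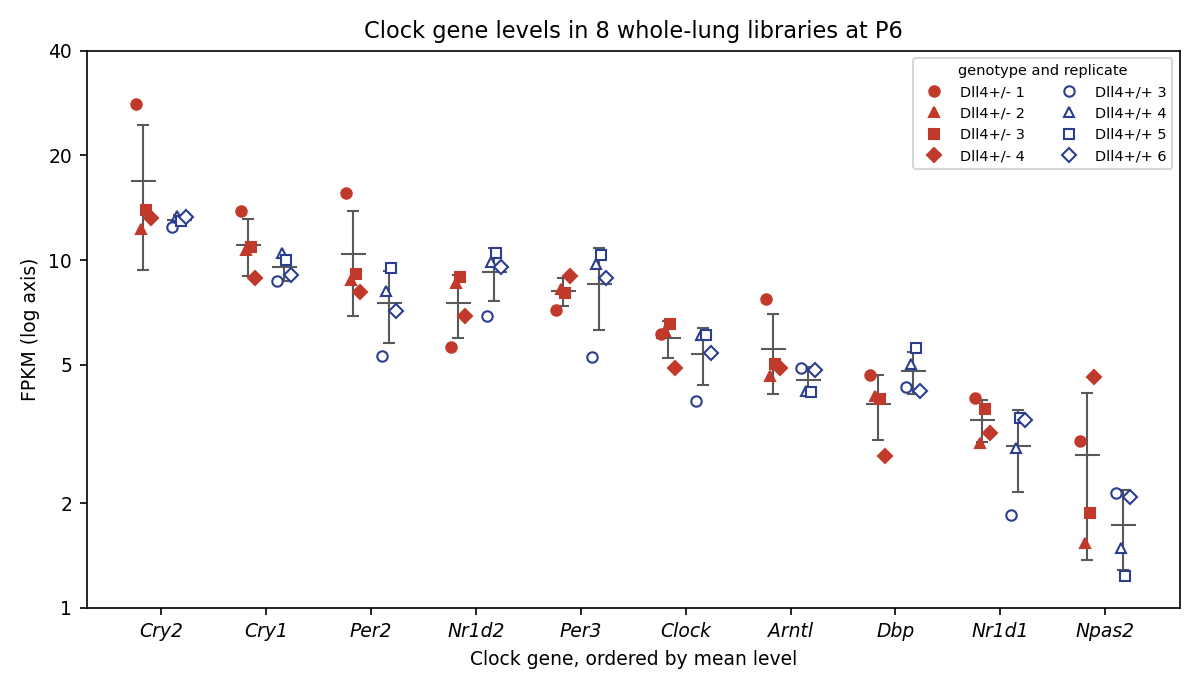
FPKM (log axis) of the 10 clock genes, ordered by mean level, in the 4 Dll4+/- (filled) and 4 Dll4+/+ (open) libraries, with a symbol shape for each replicate. Horizontal lines are group means and bars are SD (n = 4 each). The circle of Dll4+/- replicate 1 lies apart from the other 3 Dll4+/- libraries for Cry2 at 28.2, Per2 at 15.6 and Arntl at 7.71 FPKM.

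The comparison of genotypes asked whether loss of 1 Dll4 copy moved the clock in the whole lung. None of the 10 genes passed. By limma on log2(FPKM + 1), 0 of the 10 had an adjusted p under 0.05, where 0% of the 13610 genes did, and 0 of the 10 had an unadjusted p under 0.05, where 3.36% of all genes did. Dll4 itself, with 1 allele replaced and groups that did not overlap, was not called either (log2 fold change -0.88, limma adjusted p = 0.811). The lack of a call therefore does not show that the clock genes were unchanged. The 4 libraries of one genotype overlapped those of the other for each of the 10, whereas 3.12% of all genes did not overlap. By sign alone, 7 clock genes were higher and 3 lower in Dll4+/- lungs, beside 45.9% of all genes above 0. Their median log2 fold change (Dll4+/- minus Dll4+/+) was 0.19, beside -0.02 over all genes tested. Leaving out Dll4+/- replicate 1 gave a median of 0.081 over the 10, and leaving out replicate 4 of that genotype as well gave 0.042. In bulk RNA, fewer cells of a type that expresses a gene and less of its RNA per cell cannot be told apart.

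**Figure D2:**
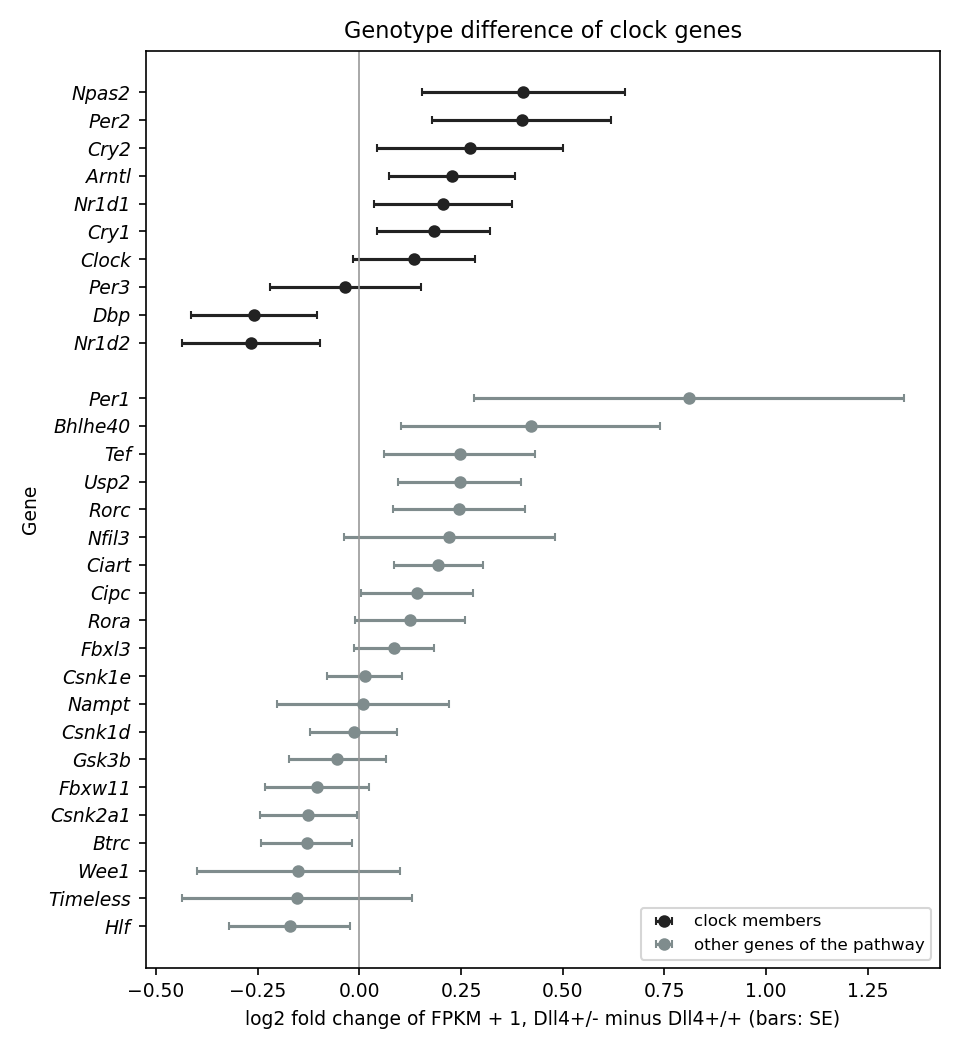
Genotype difference of each clock gene (black) and of the other tested genes of the pathway (grey), as log2 fold change of FPKM + 1, Dll4+/- minus Dll4+/+, with bars for the SE (limma, 4 libraries each). The 10 clock genes lie between -0.27 for Nr1d2 and 0.40 for Npas2, and Per1 at 0.81 has the widest bar, an SE of 0.53.

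Arntl encodes the partner that both activator pairs of the clock share. It measured 7.71, 4.65, 5.01 and 4.88 FPKM in Dll4+/- replicates 1 to 4 and 4.88, 4.20, 4.18 and 4.84 FPKM in Dll4+/+ replicates 3 to 6. The highest of the 8 was Dll4+/- replicate 1, and the other 7 lay between 4.18 and 5.01 FPKM, with the genotypes mixed. The means were 5.56 ± 1.44 and 4.53 ± 0.387 FPKM (SD, n = 4 each), a log2 fold change of 0.23 (SE 0.15, limma adjusted p = 0.811). It was 0.084 without Dll4+/- replicate 1.

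Clock, whose protein is the usual partner of ARNTL, had the smallest coefficient of variation of the 10 over the 8 libraries, 15.4%. Its level was 6.14, 6.25, 6.54 and 4.90 FPKM in the Dll4+/- and 3.94, 6.07, 6.09 and 5.41 FPKM in the Dll4+/+ libraries, in the same replicate order. The lowest library was Dll4+/+ replicate 3 and the groups overlapped (log2 fold change 0.13, SE 0.15, limma adjusted p = 0.821). Without Dll4+/+ replicate 3 the difference was 0.016.

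Npas2, the paralog that can stand in for CLOCK, had the widest spread of the 10. Dll4+/- lungs had 3.01, 1.53, 1.88 and 4.61 FPKM, and Dll4+/+ lungs 2.14, 1.48, 1.24 and 2.08 FPKM. The highest were Dll4+/- replicates 4 and 1, and the other 6 libraries lay between 1.24 and 2.14 FPKM with the genotypes mixed. Its genotype difference of 0.40 on the log2 scale (SE 0.25, limma adjusted p = 0.811) rested in direction on those libraries, since it was -0.0042 when both were left out.

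The promoter window of Arntl is shown because it holds the motif read by the NR1D receptors and by their activating counterparts, the ROR receptors. Windows came from RefSeq for GRCm38.p6, from 250 bases before to 50 bases after each annotated start. They were searched on both strands for the E-box (CACGTG), the E'-box (CACGTT, which reads AACGTG on the other strand), the D-box (TTATGTAA or TTACGTAA) and the ROR response element (RORE). The E-box and the E'-box differ in the last letter, so that they share no match. Windows were found for 9 of the 10 genes, 12 windows in all, with none for Per2. Among 32851 windows of this length an E-box was present in 7.15%, an E'-box in 4.68%, a D-box in 1.06% and a RORE in 0.384%. A match describes letters and is not evidence of a bound site. Of the 2 Arntl windows, the one at chr7:113207261-113207560 (GRCm38.p6, forward strand) held a RORE (in capitals) whose opening base lies at position 26, counted with the annotated start at 0.
Arntl: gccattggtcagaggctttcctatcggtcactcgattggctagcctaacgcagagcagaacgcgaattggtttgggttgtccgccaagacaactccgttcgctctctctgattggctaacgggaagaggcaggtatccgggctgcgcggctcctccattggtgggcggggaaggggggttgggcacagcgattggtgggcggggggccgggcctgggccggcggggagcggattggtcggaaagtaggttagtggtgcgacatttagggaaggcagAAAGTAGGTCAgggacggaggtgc

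No match lay in the windows of Clock (3 windows), Npas2, Nr1d2 or Dbp. Those letters are absent from these windows only.

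Cry1 and Cry2 encode the cryptochromes, the strongest repressors of the ARNTL pair. Cry2 was at 28.2, 12.3, 13.9 and 13.2 FPKM in Dll4+/- replicates 1 to 4 and at 12.4, 13.4, 13.0 and 13.3 FPKM in Dll4+/+ replicates 3 to 6. A single library was high, Dll4+/- replicate 1, and the other 7 lay between 12.3 and 13.9 FPKM with the genotypes mixed. In the 4 Dll4+/+ lungs the coefficient of variation of Cry2 was 3.36%. The genotype means were 16.9 ± 7.54 and 13.0 ± 0.438 FPKM (log2 fold change 0.27, SE 0.23, limma adjusted p = 0.811), and without Dll4+/- replicate 1 the log2 fold change was 0.010. Cry2 lies on chromosome 2, as Dll4 does.

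Cry1, whose loss shortens the rhythm in mice, was counted on 467 to 828 fragments per library. Its values were 13.9, 10.7, 10.9 and 8.87 FPKM in Dll4+/- and 8.68, 10.5, 10.01 and 9.05 FPKM in Dll4+/+ lungs, with the highest in Dll4+/- replicate 1 and the groups overlapping. The difference was 0.18 on the log2 scale (SE 0.14, limma adjusted p = 0.811), and 0.078 without that library.

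Per2 encodes the partner that carries the cryptochromes back to the nucleus. It measured 15.6, 8.77, 9.15 and 8.08 FPKM in Dll4+/- and 5.31, 8.13, 9.51 and 7.14 FPKM in Dll4+/+ lungs. Of the 8 libraries, Dll4+/- replicate 1 was the highest and Dll4+/+ replicate 3 the lowest, a 2.93-fold range, and the other 6 libraries overlapped between genotypes. The means were 10.4 ± 3.48 and 7.52 ± 1.76 FPKM, a log2 fold change of 0.40 (SE 0.22, limma adjusted p = 0.811), which was 0.20 without Dll4+/- replicate 1 and 0.25 with Dll4+/- replicate 4 also left out.

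Per3, the period paralog that the loop can run without, had another order of libraries than Per2. It was at 7.20, 8.27, 8.03 and 9.001 FPKM in Dll4+/- and 5.26, 9.77, 10.3 and 8.90 FPKM in Dll4+/+ lungs. The highest library for Per2, Dll4+/- replicate 1, was the lowest Dll4+/- library for Per3, while Dll4+/+ replicate 3 was the lowest of the 8 for both genes. The log2 fold change of Per3 was -0.03 (SE 0.19, limma adjusted p = 0.966), with a sign that changed when any of 3 libraries was left out.

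The windows of 3 repressor genes are shown because they hold motifs of the loop. That of Cry1 (chr10:85185005-85185304, reverse strand) held an E'-box at -79 and an E-box at -60, that of Cry2 (chr2:92434020-92434319, reverse strand) an E'-box at -166, and that of Per3 (chr4:151044616-151044915, reverse strand) a pair of D-boxes at -205 and -158. D-boxes are the sequence read by DBP and its relatives. Matches are in capitals, positions give their opening base before the annotated start, and each run is written along the strand of its gene (GRCm38.p6).
Cry1: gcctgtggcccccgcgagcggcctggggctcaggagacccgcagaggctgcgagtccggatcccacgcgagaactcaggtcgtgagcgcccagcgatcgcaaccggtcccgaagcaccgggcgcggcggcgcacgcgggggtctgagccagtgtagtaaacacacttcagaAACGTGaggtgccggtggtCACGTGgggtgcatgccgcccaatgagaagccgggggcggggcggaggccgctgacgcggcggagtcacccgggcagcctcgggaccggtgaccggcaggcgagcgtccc
Cry2: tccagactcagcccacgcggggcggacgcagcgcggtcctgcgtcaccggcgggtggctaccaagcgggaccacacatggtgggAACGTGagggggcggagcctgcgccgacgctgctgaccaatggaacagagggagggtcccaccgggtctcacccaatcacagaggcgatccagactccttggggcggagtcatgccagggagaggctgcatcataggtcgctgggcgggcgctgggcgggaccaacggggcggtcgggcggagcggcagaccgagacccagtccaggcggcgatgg
Per3: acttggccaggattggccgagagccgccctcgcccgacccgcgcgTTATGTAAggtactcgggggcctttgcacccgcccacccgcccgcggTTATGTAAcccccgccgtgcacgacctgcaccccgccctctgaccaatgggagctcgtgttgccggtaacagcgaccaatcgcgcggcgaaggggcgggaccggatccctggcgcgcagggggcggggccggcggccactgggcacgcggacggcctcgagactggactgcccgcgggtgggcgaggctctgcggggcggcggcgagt

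Nr1d1 and Nr1d2 encode REV-ERB alpha and beta, which bind ROREs and repress Arntl. Nr1d2 measured 5.62, 8.57, 8.95 and 6.92 FPKM in Dll4+/- and 6.91, 9.90, 10.5 and 9.55 FPKM in Dll4+/+ lungs. The lowest of the 8 was Dll4+/- replicate 1, and 3 of the 4 Dll4+/+ libraries lay above all Dll4+/- libraries, the exception being Dll4+/+ replicate 3. The means were 7.52 ± 1.54 and 9.22 ± 1.59 FPKM (log2 fold change -0.27, SE 0.17, limma adjusted p = 0.811). Leaving out Dll4+/- replicate 1 gave -0.15, and leaving out Dll4+/- replicate 4 with it gave -0.051.

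Nr1d1 was at 4.003, 2.98, 3.74 and 3.19 FPKM in Dll4+/- and 1.85, 2.88, 3.504 and 3.48 FPKM in Dll4+/+ lungs. Only Dll4+/+ replicate 3 was clearly low, and the remaining 7 libraries ran from 2.88 to 4.003 FPKM with the genotypes mixed. Its log2 fold change of 0.21 (SE 0.17, limma adjusted p = 0.811) was 0.060 without that library. Of its exonic bases, 8.55% are shared with Thra, a thyroid hormone receptor gene on the opposite strand. The strandedness of the counting is not stated in these sources, and reads there cannot be told apart. The window of Nr1d1 (chr11:98775328-98775627, GRCm38.p6, reverse strand), shown as that of an E-box target with a match next to its start, held an E'-box (in capitals) at -28.
Nr1d1: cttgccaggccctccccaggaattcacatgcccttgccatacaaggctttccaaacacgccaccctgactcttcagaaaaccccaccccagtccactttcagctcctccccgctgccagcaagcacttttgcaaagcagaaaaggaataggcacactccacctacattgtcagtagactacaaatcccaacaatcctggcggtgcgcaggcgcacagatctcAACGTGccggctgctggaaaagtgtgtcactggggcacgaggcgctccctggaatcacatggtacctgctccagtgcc

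Dbp, a PAR bZIP factor driven by the ARNTL pair, carries the rhythm to output genes. It was at 4.68, 4.07, 3.98 and 2.73 FPKM in Dll4+/- and 4.32, 5.03, 5.59 and 4.19 FPKM in Dll4+/+ lungs. Dll4+/- replicate 4 was the lowest and Dll4+/+ replicate 5 the highest, while Dll4+/- replicate 1 lay among the Dll4+/+ libraries. The means of 3.86 ± 0.817 and 4.78 ± 0.650 FPKM gave a log2 fold change of -0.26 (SE 0.15, limma adjusted p = 0.811), which was -0.34 without Dll4+/- replicate 1 and -0.14 without Dll4+/- replicate 4. Dbp shares 18.0% of its exonic bases with Sphk2 on the opposite strand, and Cry2 and Arntl share 4.67% and 0.439% with transcripts without a protein, also on the opposite strand.

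The spread between pups was set by a few libraries. Over the 8 libraries the SD of log2(FPKM + 1) was larger for Npas2 than for 86.9% of all genes tested, for Per2 than for 83.3% and for Cry2 than for 81.4%, whereas Cry1 exceeded 37.7% and Clock 39.3%. In Dll4+/- replicate 1 the level lay above the other 7 libraries for 5 of the 10 genes, Arntl, Cry1, Cry2, Per2 and Nr1d1, where 20.9% of all genes did. It lay below them for 1 gene, Nr1d2, where 35.2% of all genes did. Its distance from the mean of the other 7 on the log2 scale was 1.05 for Cry2, 0.90 for Per2, 0.62 for Arntl, 0.46 for Cry1 and -0.55 for Nr1d2, and 0.13 for each of Clock and Dbp.

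Dll4+/+ replicate 3 lay below the other 7 libraries for 5 of the 10 genes, Clock, Cry1, Per2, Per3 and Nr1d1, where 24.3% of all genes did. Dll4+/+ replicate 5, in contrast, had 10.4% of all genes outside the range of the other 7, yet it was the highest of the 8 for 3 clock genes, Per3, Nr1d2 and Dbp (6.73% of all genes), and the lowest for 2, Arntl and Npas2 (3.63%). Among the remaining libraries, Dll4+/- replicate 4 was the highest for Npas2 (19.6% of all genes) and the lowest for Dbp (17.5%), Dll4+/- replicate 3 the highest for Clock (13.5%) and Dll4+/- replicate 2 the lowest for Cry2 (5.23%), with 21.4% and 15.2% of all genes outside the range in those 2. In Dll4+/+ replicates 4 and 6, where 8.12% and 6.7% of all genes were extreme, 0 of the 10 were.

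**Figure D3:**
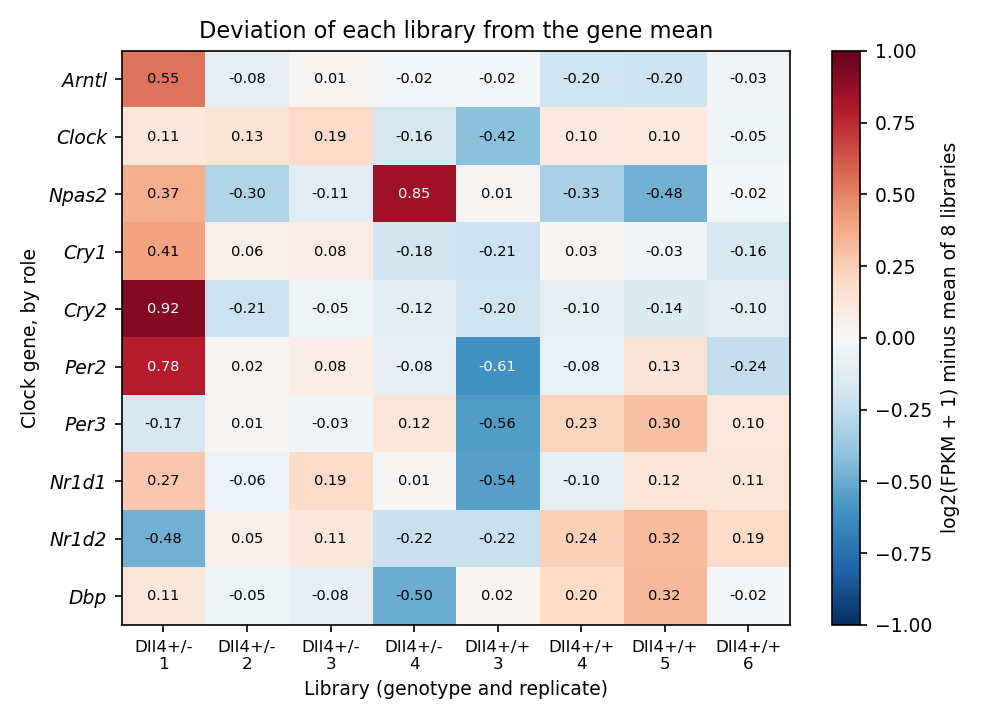
Deviation of each library from the mean of the 8 libraries, in log2(FPKM + 1), for the 10 clock genes (rows, by role) in the 8 libraries (columns), with the value in each cell and red for higher. The column of Dll4+/- replicate 1 is at 0.92 for Cry2 and -0.48 for Nr1d2, and Dll4+/+ replicate 5 is at -0.20 for Arntl and 0.32 for Dbp.

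Other groups of genes moved in the same libraries. In Dll4+/- replicate 1 the median log2 deviation of glucocorticoid-induced genes (11 of 12 tested) was 1.28, with the other 7 libraries from -0.43 to 0.06, and their summed level was 1278 FPKM against 436.2 to 917 FPKM. Per1, a clock gene that glucocorticoids also induce, is 1 of those genes. Neutrophil markers (8 of 8) were at 2.32 against -0.87 to 0.17, a summed 1402 FPKM against 93.8 to 198 FPKM, with none of the 8 at 0. Cell cycle genes (15 of 15) were at -2.42 against 0.01 to 0.42, a summed 62.4 FPKM against 369.6 to 504 FPKM. Alveolar type I markers were at 0.60 and airway markers at 0.61 in that library. In Dll4+/- replicate 4, the highest library for Npas2, endothelial markers were at -0.63 and alveolar type II markers at 0.61. In Dll4+/+ replicate 5 the glucocorticoid, neutrophil and cell cycle medians were -0.27, -0.14 and 0.41, each within the range of the other 3 Dll4+/+ libraries. Its median was the highest of the 8 for immediate early genes, at 0.29 against -0.32 to 0.17, and lay below the other 3 Dll4+/+ libraries for cardiac muscle genes (-0.54 against 0.21 to 0.92) and airway markers (-0.25 against -0.16 to 0.23). Dll4+/+ replicate 3, the lowest library for 5 clock genes, had the highest median for erythroid genes, at 0.58 against -0.54 to 0.24, and the lowest for immediate early genes, at -0.32. For immediate early genes Dll4+/- replicates 2 and 1 were close to it, at -0.31 and -0.27. The part of these values in the clock genes was not tested.

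**Figure D4:**
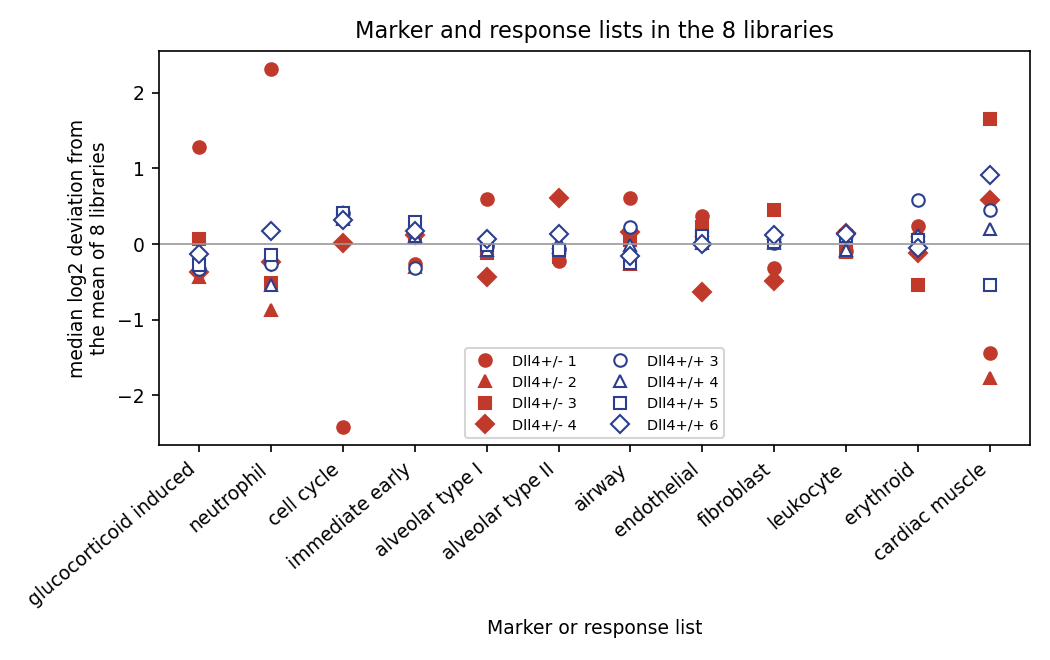
Median log2 deviation from the mean of the 8 libraries for 12 lists of marker and response genes, with a point for each library (filled for Dll4+/-, open for Dll4+/+). Apart from the other 7 libraries, Dll4+/- replicate 1 lies at 1.28 for glucocorticoid-induced, 2.32 for neutrophil and -2.42 for cell cycle genes.

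Whether clock genes varied together from pup to pup was read from the 45 pairs they form, over 8 libraries, with two-sided exact permutation tests. By Pearson's r, 8 pairs had an unadjusted p under 0.05, 5 positive and 3 negative, 9 did so by Spearman's rho, and 4 by both. Against all genes tested with the same member, 0 pairs passed after adjustment by either measure. By Pearson's r, the share of all genes under 0.05 was 25% with Per2, 21.4% with Nr1d2, 21% with Cry2, 20.4% with Cry1, 18.2% with Clock, 17.4% with Arntl, 16.8% with Nr1d1, 16% with Npas2, 7.54% with Per3 and 4.66% with Dbp. Such p-values were thus common over all genes, and 8 of 45 pairs is not a trait of clock genes alone. No share over all genes was computed for Spearman's rho, for both measures together or with libraries left out. Within 1 genotype there are 4 libraries, too few for a correlation of their own.

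The repressors Cry1 and Per2 had the smallest p of the 45 pairs by Pearson's r (r = 0.913, exact permutation p = 0.00216, adjusted p = 0.0769 over all genes against Cry1, rho = 0.833, p = 0.0154). Leaving out Dll4+/- replicate 1 and Dll4+/+ replicate 3, the libraries farthest from the median of Cry1, gave an r of 0.658 (exact permutation p = 0.171), so the pair was not under 0.05 without those libraries. Leaving out the extremes of a gene also narrows its range. The pair was under 0.05 in each of 12 other alternatives (r = 0.745 to 0.953), with r = 0.860 over the 6 libraries without Dll4+/- replicates 1 and 4 (exact permutation p = 0.0208). With only Dll4+/- replicate 1 left out r was 0.745 (exact permutation p = 0.0266), and on deviations from the genotype means it was 0.885 (exact permutation p = 0.00521). Cry2 with Per2 (r = 0.831) and Cry1 with Cry2 (r = 0.8292) depended on Dll4+/- replicate 1, without which r was 0.388 and 0.225. The largest r of the 45 pairs was 0.933, for Arntl with Cry2 (exact permutation p = 0.0531), and it was 0.103 without that library. By Spearman's rho the largest was 0.905, for Clock with Cry1 (exact permutation p = 0.00456, adjusted p = 0.167).

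Arntl and its repressor gene Nr1d2 had opposed patterns over the 8 libraries, which did not pass adjustment (r = -0.819, exact permutation p = 0.00489, adjusted p = 0.283, rho = -0.810, p = 0.0218). Without Dll4+/- replicate 1 and Dll4+/+ replicate 5 r was -0.513 (exact permutation p = 0.310), so the pair was not under 0.05 without those libraries. The pair was under 0.05 in 10 of 12 other alternatives, with r = -0.754 on deviations from the genotype means (exact permutation p = 0.0330), and was not without Dll4+/- replicate 1 (r = -0.666) or without Dll4+/- replicates 1 and 4 (r = -0.644). Nr1d1, the other NR1D gene, had a positive r with Arntl, 0.380 over the 8 libraries (exact permutation p = 0.249, rho = 0.381). Npas2 showed negative relations with Nr1d2 (r = -0.752, exact permutation p = 0.0275, rho = -0.833) and with Dbp (r = -0.788, exact permutation p = 0.0275, rho = -0.548). Without Dll4+/- replicates 4 and 1 these were -0.674 and -0.736, with exact permutation p of 0.119 and 0.106. The remaining pairs under 0.05 were Per2 with Nr1d1 (r = 0.795) and Clock with Nr1d1 (r = 0.781). Without the libraries farthest from the median, these were 0.213 and 0.0616.

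Arntl and Dbp, which peak at opposite hours in adult tissues, had an r of -0.0769 over 8 libraries (exact permutation p = 0.818) and of -0.728 without Dll4+/- replicate 1 (exact permutation p = 0.0484). Nr1d2 and Dbp, both targets of the ARNTL pair, had an r of 0.400 over 8 libraries and 0.748 without Dll4+/- replicate 1 (exact permutation p = 0.0399). Leaving out Dll4+/+ replicate 3 as well gave an r of 0.972 (exact permutation p = 0.00278, the smallest possible with 6 libraries). The libraries left out are the 2 farthest from the median of Nr1d2. The choice of the second was close, since Nr1d2 was at 6.91 FPKM in Dll4+/+ replicate 3 and at 6.92 FPKM in Dll4+/- replicate 4. With only Dll4+/+ replicate 3 left out r was 0.432, and with only Dll4+/- replicate 4 left out it was 0.254. The r of 0.972 thus holds for that choice of libraries only. Of the 45 pairs, only Nr1d2 with Dbp was under 0.05 after leaving out the 2 farthest libraries. Arntl with Dbp and Nr1d2 with Dbp were singled out after their values were seen. Leaving out Dll4+/- replicate 1 gave 9 pairs under 0.05, of which 4 were also among the 8 over all libraries and 5 were not. The pairs that varied together thus differed with and without that library.

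**Figure D5:**
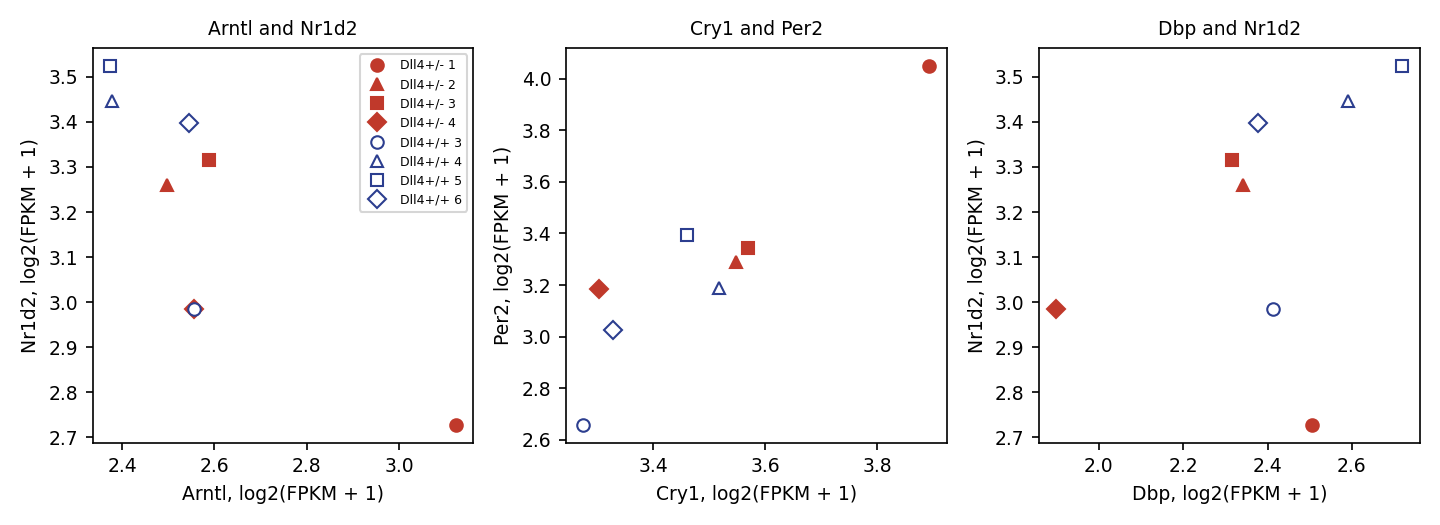
Levels of 3 pairs of clock genes in log2(FPKM + 1) on both axes, with a point for each of the 8 libraries (filled for Dll4+/-, open for Dll4+/+). The circle of Dll4+/- replicate 1 lies alone at the high end of Arntl and of Cry1. In the pair of Dbp and Nr1d2, 6 libraries lie along a rising line (r = 0.972, against 0.400 over all 8) with Dll4+/- replicate 1 and Dll4+/+ replicate 3 below it.

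A single value for each pup was taken as the mean log2(FPKM + 1) of the activators Arntl, Clock and Npas2 minus that of Per2, Per3, Nr1d1, Nr1d2 and Dbp. It was -0.27, -0.59, -0.54 and -0.16 in Dll4+/- replicates 1 to 4 and -0.27, -0.75, -0.94 and -0.57 in Dll4+/+ replicates 3 to 6. The genotypes overlapped, at -0.39 ± 0.21 and -0.63 ± 0.28 (SD, n = 4 each). Dll4+/- replicate 4 was at the activator end and Dll4+/+ replicate 5 at the output end. The value is a description and was not tested.

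The labels give the sex of each pup, so the genotype difference of each clock gene was compared between males and females. With limma, 0 of the 10 genes had an adjusted p under 0.05 for the interaction, beside 0.022% of all genes, and 0 of 10 an unadjusted p under 0.05, beside 7.61%. The adjusted p ranged from 0.678 for Per2 to 0.913 for Arntl. The test rests on Dll4+/- replicate 2, whose sex markers go against its label. Without Dll4+/- replicate 4 the interaction was 1.08 for Cry2 and 1.18 for Per2 on the log2 scale, males minus females. That fit leaves Dll4+/- replicate 1 as the only Dll4+/- library labelled male, assumed to vary like the other groups, so these values are those of that library.

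Of 25 other genes of the clock pathway, 24 were in the table and 20 passed the filter. Arntl2, Rorb, Bhlhe41 and Fbxl21 were below it. Among the 20, 12 were higher and 8 lower in Dll4+/- lungs, beside 45.9% of all genes above 0. An unadjusted p under 0.05 was found for 0 of the 20, beside 3.36% of all genes. The genotypes did not overlap for 0 of the 20, beside 3.12% of all genes. Their median log2 fold change was 0.05, beside -0.02 over all genes tested. In the feedback loop, Per1, the third period gene, averaged 35.4 ± 34.5 FPKM in the Dll4+/- group against 14.6 ± 3.29 FPKM in the Dll4+/+ group, with 85.8 FPKM in Dll4+/- replicate 1 (log2 fold change 0.81, SE 0.53). With that library left out the log2 fold change of Per1 was 0.25. Bhlhe40, which encodes the repressor DEC1, was 0.42 higher on the log2 scale (SE 0.32), and its highest library was Dll4+/- replicate 4 at 22.6 FPKM. It was 0.14 higher with that library left out and -0.14 with Dll4+/- replicate 1 left out as well, so its direction rested on those libraries.

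Among genes for proteins that modify clock proteins, Usp2, a ubiquitin-specific protease, was at 0.25 (SE 0.15) and Btrc, which targets PER proteins for degradation, at -0.13 (SE 0.11). Of the output genes, Tef, a PAR bZIP relative of Dbp, was at 0.25 (SE 0.19) and Nfil3, which represses through D-boxes, at 0.22 (SE 0.26). The highest library for both was Dll4+/- replicate 1, at 54.6 and 23.5 FPKM. Leaving it out gave 0.053 for Tef and -0.042 for Nfil3, whose sign thus turned. The limma adjusted p of these 6 genes was 0.811 to 0.826.

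Among the genes whose pattern over the 8 libraries was most like that of Arntl, of those with an SD of 0.2 or more, were Ntrk2, Gpihbp1, Serpina3c, Ccdc152 and Dcaf6 (r = 0.969 to 0.980). The most opposite were Thbs3, Skp2, Ezh2, Tube1, Egr1 and Dcakd (r = -0.988 to -0.979). None of these genes passed adjustment over all genes (exact permutation, adjusted p = 0.283), and Dll4+/- replicate 1 was the extreme library in each. Ntrk2, a neurotrophin receptor gene, was at 38.2 FPKM there and at 1.31 to 3.63 FPKM in the other 7.

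Dbp had other company. Tmcc2, Wars, Sema3g, Hist1h4a, Gm6257 and I830012O16Rik were most like it (r = 0.913 to 0.960), and Bfsp1, Dstn, Ccdc74a, Iglc2, Ghrl and Tcea3 were most opposite (r = -0.977 to -0.946). Their adjusted p was 0.627 to 0.771 (exact permutation). Dll4+/- replicate 4 was the lowest library for each gene most like Dbp and the highest for each most opposite. Wars also stood apart in Dll4+/+ replicate 5, at 49.3 FPKM against 22.2 to 38.9 FPKM in the other 7. Sema3g, a semaphorin gene of arterial endothelium, was at 18.6 FPKM in Dll4+/- replicate 4 and at 31.5 to 38.0 FPKM in the other 7.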

How the data were processed

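Of the 10 samples in the series, 8 have an FPKM column in the table. Dll4+/+ replicates 1 and 2 were not analysed here. The authors extracted RNA with a MirVana kit, sequenced poly-A selected NEBNext Ultra libraries as paired ends, and deposited FPKM values. CASAVA, STAR and the build GRCm38.p4 appear in the submitters' processing notes, without tool versions, and the program that estimated FPKM was not stated. The authors' columns of group means, ratios and p-values were not used. In 239 genes the deposited FPKM of 0.005 stood in place of 0 and was set back to 0. Groups, replicate numbers and sexes came from the labels.

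Depth was recovered from the steps of the FPKM values. All 13610 genes tested (100% of them) gave whole fragments within a tolerance of 0.01 in every library, 1454 at the annotated exon length and 12156 at another length, so fragment numbers of a gene can be off by a factor that all libraries share. At 2000 bases, 3 fragments equalled 0.0654 to 0.0872 FPKM. Such limits cover counting error only.

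Genotypes were compared with limma (3.58.1, R 4.3.3) on log2(FPKM + 1), with a mean-variance trend and Benjamini-Hochberg adjustment over the 13610 genes at a threshold of 0.05. Fold changes on this scale understate those of low genes. Correlations used all 40320 pairings of 8 libraries, two-sided, in Python 3.11.15 with numpy 2.4.6. Both steps were tested on simulated data. For limma these had independent noise with the spread of Dll4+/- replicates 2 and 3 and Dll4+/+ replicates 4 to 6. The spread of Dll4+/- replicates 1 and 4 and Dll4+/+ replicate 3 was not in it. That simulation therefore does not show how the fit behaves with those libraries. Positions came from GENCODE M21. Libraries came from separate pups, so p-values measure the spread between animals, with litters unknown.

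The clock genes, the other gene lists and the tests were chosen with earlier results of these data known. Named were all 10 members, the 2 tested genes of each pathway list with the largest absolute log2 fold change, the 6 genes most like and the 6 most opposite to Arntl and to Dbp with an SD of 0.2 or more, and Dll4, Xist and Ddx3y as checks, with Sftpc, Thra and Sphk2 added after their values or positions were seen. A gene that this rule names for Arntl is not reported here. Alternatives were a pseudocount of 0.1, no filter, median-ratio scaling, library weights, labelled sex, a replicate block, voom on recovered fragments, genotype deviations and leaving out libraries.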

Additional observations from a re-analysis of the deposited data

Results flagged for a closer look

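In 3 of the 20 groups of 4 libraries (10 clock genes in each genotype), 1 library was far from the other 3 by Dixon's criterion. Chance flags about 1 in 20 independent groups, but these groups share the same libraries. The share of all genes that meet the criterion was not computed, so the flags are not a result about clock genes. The library was Dll4+/- replicate 1 each time, in which 56.1% of all genes tested lay outside the range of the other 7. Arntl was at 7.71 FPKM there and at 4.65 to 5.01 FPKM in the other Dll4+/- libraries. Cry2 was at 28.2 FPKM against 12.3 to 13.9 FPKM. Per2 was at 15.6 FPKM against 8.08 to 9.15 FPKM. In the Dll4+/+ group none of the 10 genes met the criterion. In the same library glucocorticoid-induced and neutrophil genes were high and cell cycle genes low, and their part in the levels of these 3 genes was not tested.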

How the results depend on the processing

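Over all genes, the number under an adjusted p of 0.05 (0) became 3 with library weights and 16 with the replicate block, and stayed at 0 with voom on recovered fragments. With the replicate block the genotype difference rests on replicates 3 and 4 of each genotype alone, since the other numbers occur in 1 genotype. Its values are therefore not those of the 8 libraries. The number under an unadjusted p of 0.05 (457) became 775 with library weights, 933 without the filter, 411 with voom, and 230 to 957 when 1 library was left out. For the 10 clock genes the adjusted count was 0 in each of the 16 alternatives. The unadjusted count (0) was 1 with labelled sex as a term (Npas2, 0.40, limma adjusted p = 0.751) and 1 with library weights (Dbp, -0.25, limma adjusted p = 0.853), and 0 to 1 with 1 library left out: Nr1d2 at -0.38 without Dll4+/+ replicate 3, Dbp at -0.34 without Dll4+/- replicate 1 and Npas2 at 0.57 without Dll4+/- replicate 2. Of the other pathway genes, 2 were under 0.05 with the replicate block, Per1 at 0.79 and Bhlhe40 at 0.80, and 0 to 3 with 1 library left out, the 3 being Per1, Bhlhe40 and Usp2 without Dll4+/- replicate 2. The share of all genes under an unadjusted 0.05 with the replicate block is not given here, so that count is not a result about clock genes. The sign of Per3 reversed to 0.21 with the replicate block and to 0.035, 0.059 and 0.015 without Dll4+/+ replicate 4, Dll4+/+ replicate 5 and Dll4+/- replicate 1 (range with 1 library left out -0.23 to 0.059), and that of Npas2 to -0.0042 without Dll4+/- replicates 1 and 4. That of Bhlhe40 reversed to -0.19 with library weights and to -0.14 without Dll4+/- replicates 1 and 4, and that of Nfil3 to -0.21 with the replicate block and to -0.042 without Dll4+/- replicate 1 (range with 1 library left out -0.042 to 0.37). For the interaction with labelled sex, the adjusted and unadjusted counts (0) stayed at 0 in the alternatives that kept all libraries. Leaving out 1 library leaves a single library in 1 group of genotype and sex, so counts from those fits are not given. The interaction could not be estimated without Dll4+/- replicates 1 and 4, since no Dll4+/- library labelled male remained. The number of pairs (8) was 4 to 9 with 1 library left out, and 6 without Dll4+/- replicates 1 and 4, of which 1 was among the 8. The causes were not tested.

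Among the 8 libraries analysed, only replicate numbers 3 and 4 occur in both genotypes, the labels do not say that they pair pups, and the deviations of same-numbered libraries correlated at -0.228 and -0.0560. Those of differently numbered libraries ran from -0.262 to 0.211, so the same-numbered values cannot tell whether such pups are related. The main comparison assumed no pairing, and the block leaves few degrees of freedom. Each clock gene was counted on 90 or more fragments per library, and the precision is set mainly by 4 pups per genotype, since Dll4+/- replicate 1 decides several values.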
